A study of Mus musculus with 6 samples.

Results

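Interferon-stimulated genes are the genes that a cell switches on when an interferon binds its receptor, and 41 of them, chosen by symbol as a broad panel of the response, were followed in RNA from mouse small intestinal mucosa. The tables list 38561 genes, and all 41 members were found in them and passed the expression filter, which left 16425 genes for testing. Libraries made from pools of mice were compared, 3 labelled Rbm47-IKO and 3 wild type (wt), all on the C57BL/6J background, from mice of both sexes aged 8 to 12 weeks with 3 mice per pool, as the labels state, while the study's methods give wider ranges of age and of mice per pool. In the Rbm47-IKO mice the gene for the RNA-binding protein Rbm47 was to be removed by a Cre recombinase driven from the villin promoter from development on, which acts in epithelial cells and not in the immune or muscle cells of the mucosa. The labels name the controls wild type, whereas the study's methods describe controls carrying the floxed Rbm47 allele. Each pool held 31560320 to 38951830 counted reads, and levels are given as normalized CPM, the count of a gene scaled to a common library size corrected by the TMM method. Because pools mix several mice, p-values below measure the spread between pools.

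The gene that the labels say was deleted was not lower. Rbm47 (chr5:66016549-66173117) had 603, 625 and 620 CPM in the pools labelled Rbm47-IKO and 460, 450 and 472 in the wt pools, a log2 fold change of 0.42 (SE 0.10, edgeR adjusted p = 0.0751). Which exons the deletion removes is not given in the sources used here, and counts over the whole gene do not show a loss of single exons. The level of Rbm47 goes against the label, and whether the labels are right was not tested. The pools are therefore called the IKO-labelled pools, and every direction below is that of the IKO-labelled pools against wt. The pools also differed in ways the genotype labels do not give. The summed CPM of 6 smooth muscle markers ranged from 361 to 3302 in the IKO-labelled pools and from 90.7 to 2803 in wt, and that of 4 Y-linked genes from 53.0 to 144 and from 87.9 to 220. Xist, which is expressed from the inactive X chromosome of females, had 75.6, 258 and 40.3 CPM in the IKO-labelled pools and 1.09, 150 and 0.686 CPM in wt, so wt pools 1 and 3 held little female RNA although the labels give both sexes for every pool. The part of sex in the results below was not tested beyond the fit with a Y-linked covariate. The 8 enterocyte markers, which include the villin gene Vil1, summed to 34581 to 38434 and 38797 to 41450, so the labelled tissue was evident in every pool. In bulk RNA, fewer cells of a type and less RNA per cell cannot be told apart.

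Type I and type III interferons signal through the kinases Jak1 and Tyk2 to a complex that holds Stat2 and Irf9 and binds the interferon-stimulated response element (ISRE) near its target genes. Interferon gamma, made chiefly by T cells and natural killer cells, signals through Jak1 and Jak2 and acts on genes that carry the gamma-activated site (GAS). In the gut epithelium, type III interferon is a main antiviral signal, and a low constant expression of many of these genes is known in uninfected mice.

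The ISRE core, searched on both strands as GAAA, any 2 bases and GAAA (on the other strand, TTTC, any 2 bases and TTTC), was present in the promoter window of 16 of the 30 members that have one, or 53.3%, against 3.99% of 27025 genes. Windows run from 250 bases before to 50 bases after the annotated start and come from RefSeq (GRCm38.p6). The members with no window there are Dhx58, Zbp1, Usp18, Oas2, Mx1, Mx2, Gbp4, Iigp1, Nlrc5, Rtp4 and Parp14. The palindromic GAS core, searched as TTCNNNGAA, was present in 10 of the 30 (33.3%), against 9.55% of genes, and in Bst2 the ISRE and GAS matches overlap. A match is a stretch of letters and not a shown binding site. The stretches below are shown because they carry the same core in members that were higher, lower or level in the IKO-labelled pools. Each is written 5′ to 3′ on the strand of its gene, with the core in capitals, and the core begins 72, 120, 213 and 222 bases before the start for Isg15, Rsad2, Cxcl10 and Stat2, 32 bases after it for Ifih1, and 34 bases before it for Igtp.
Isg15 (chr4:156200871-156200900, minus strand): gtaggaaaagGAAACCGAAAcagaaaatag
Rsad2 (chr12:26456553-26456582, minus strand): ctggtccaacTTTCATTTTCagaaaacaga
Cxcl10 (chr5:92349083-92349112, minus strand): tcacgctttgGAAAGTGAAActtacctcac
Stat2 (chr10:128270266-128270295, plus strand): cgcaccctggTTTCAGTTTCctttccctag
Ifih1 (chr2:62646206-62646235, minus strand): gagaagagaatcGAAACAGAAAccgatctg
Igtp (chr11:58199512-58199541, plus strand): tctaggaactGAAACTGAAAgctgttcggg

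As a group, the members did not move one way. Of the 41, 20 had a log2 fold change above 0 and 21 below, with a median of -0.04, against -0.0059 over all genes tested. At an edgeR adjusted p of 0.05 or less, 2 members were called, Isg15 and Rsad2, both higher in the IKO-labelled pools, and 0 were called lower. Over all genes tested, 2.70% were called, 1.45% higher and 1.25% lower. An unadjusted edgeR p under 0.05 was reached by 9 of 41 members, or 22.0%, against 16.8% of all genes, and DESeq2 called 4 members higher and 1 lower, where it called 7.62% of all genes, 4.09% higher and 3.53% lower. All 3 pools of one group lay beyond all 3 of the other for 9 members, 6 higher and 3 lower. That pattern was found for 23.3% of all genes, 11.7% higher and 11.6% lower, so the members' share of 22.0% was near the background. For 31 of 41 members the 95% interval of the log2 fold change lay within 1 in either direction, and for 32 it held 0.

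**Figure D1:**
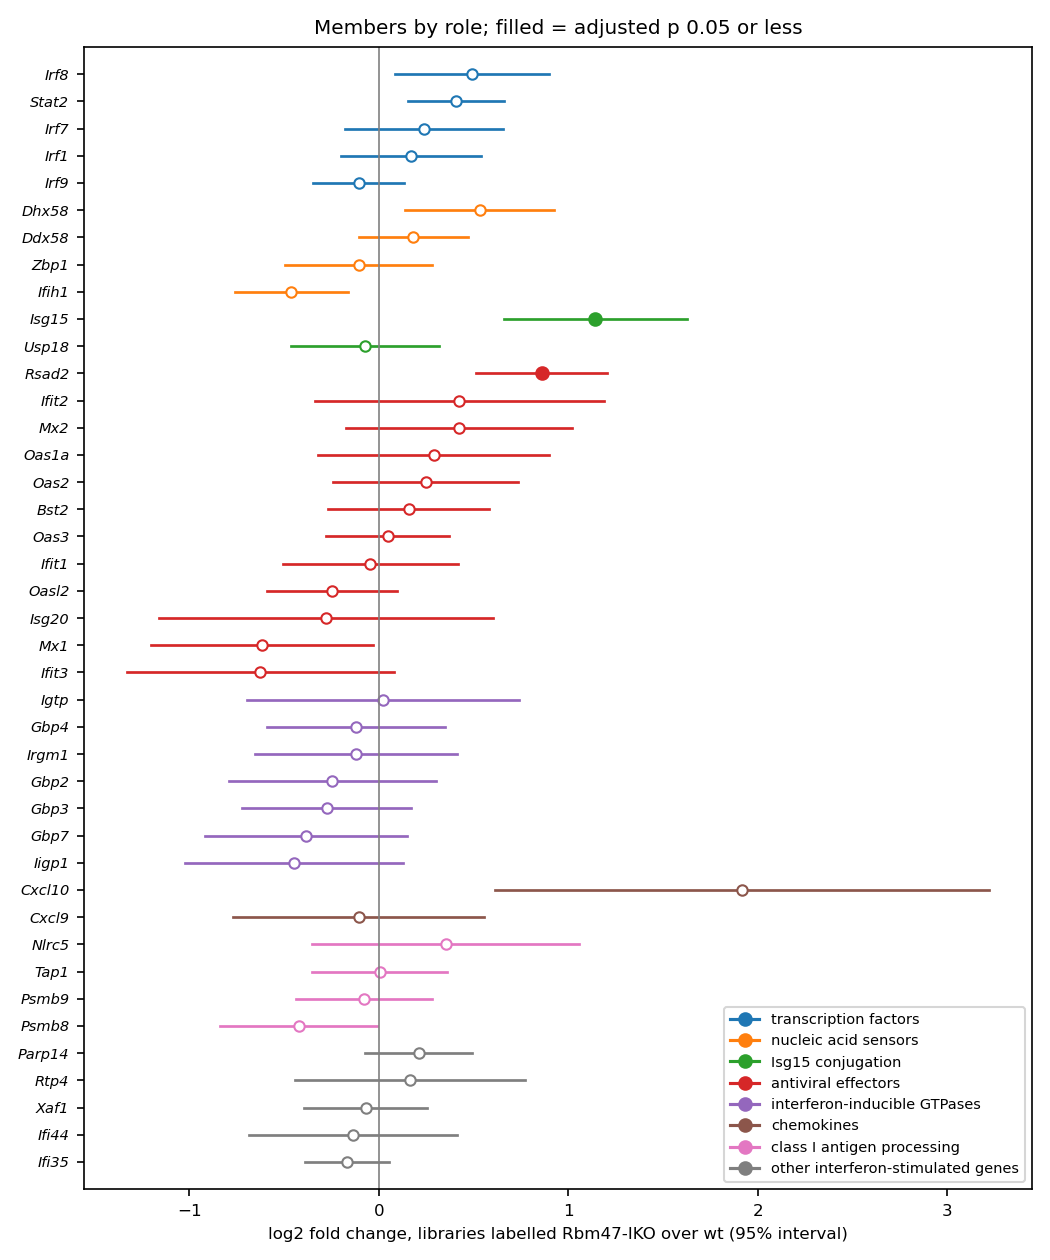
Log2 fold change of each of the 41 members (horizontal axis, IKO-labelled over wt, 3 pools each), ordered by role, with lines for 95% intervals and filled points for an adjusted p of 0.05 or less. Only Isg15 (1.14) and Rsad2 (0.86) are filled, and Cxcl10 (1.92) has the widest interval.

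Isg15, a ubiquitin-like protein that is attached to other proteins during the antiviral response, was among the members with the largest difference. Isg15 (chr4:156199424-156200818) had 23.9, 29.3 and 28.4 CPM in the IKO-labelled pools and 10.6, 16.4 and 9.99 CPM in wt. The lowest of the former lay above the highest of the latter, and the means differed 2.21-fold. Its log2 fold change was 1.14 (SE 0.21, 95% interval 0.66 to 1.62, edgeR adjusted p = 0.0365). When 1 pool was left out, its value lay between 1.02 and 1.41, and the call held in 1 of 6 fits, that without wt pool 2. With the summed Y-linked level as a covariate it was 0.98 (edgeR adjusted p = 0.0909), and over all alternatives the adjusted p ranged from 1.95e-05 to 0.196. With pool number as a block, Isg15 was not called. Usp18, the protease that removes Isg15 from proteins and also dampens the type I receptor, had 37.0, 31.4 and 29.2 CPM against 28.2, 41.9 and 32.4. Its groups overlapped, and the log2 fold change was -0.07 (95% interval -0.46 to 0.32, edgeR adjusted p = 0.902). The promoter window of Isg15 held 3 overlapping ISRE cores, of which the middle one is printed above.

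Rsad2 encodes viperin, an enzyme that makes a chain-terminating nucleotide against viral polymerases. Rsad2 (chr12:26442753-26456452) had 26.0, 26.0 and 31.7 CPM in the IKO-labelled pools and 13.1, 15.6 and 17.4 CPM in wt. All 3 of the former were above all 3 of the latter, and the log2 fold change was 0.86 (SE 0.15, 95% interval 0.51 to 1.21, edgeR adjusted p = 0.0322). It stayed between 0.75 and 0.96 with 1 pool left out, and the call held in 0 of 6 such fits. With the Y-linked covariate it was 0.89 (edgeR adjusted p = 0.11), in a range of adjusted p over alternatives of 0.000128 to 0.148. Rsad2 was not called with pool number as a block either. Cmpk2, its neighbour on the chromosome, a nucleotide kinase that supplies viperin's substrate and is itself induced by interferon, had 72.3, 82.3 and 82.5 CPM against 56.2, 73.6 and 87.8, a log2 fold change of 0.12 (by edgeR, adjusted p = 0.808). The pools of Cmpk2 overlapped, unlike those of Rsad2. The difference between the 2 genes was not tested.

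Among the 12 antiviral effectors, Rsad2 was the 1 called. Log2 fold changes were above 0 for 7 and below 0 for 5, with a median of 0.10. The Mx proteins are dynamin-like GTPases that trap viral particles, and Mx1 is known to be defective in most laboratory strains, C57BL/6J among them. Mx2 (chr16:97536083-97560899) had 3.73, 3.46 and 5.82 CPM in the IKO-labelled pools and 3.03, 3.40 and 3.27 in wt. The groups did not overlap, by a margin of 3.46 over 3.40, and the log2 fold change of 0.42 had an interval of -0.17 to 1.02 (edgeR adjusted p = 0.478). Mx1 had 7.11, 5.17 and 7.63 CPM against 13.1, 7.43 and 9.93, a log2 fold change of -0.61 (by edgeR, adjusted p = 0.275), with wt pool 2 inside the range of the other group.

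Ifit1 binds foreign RNA by its 5′ end, and the 3 Ifit members pointed different ways. Ifit2 (chr19:34550694-34576419) had 6.47, 5.76 and 6.68 CPM in the IKO-labelled pools and 2.5, 6.43 and 5.13 in wt. The low value of wt pool 1 set a 2.57-fold range within wt, and the log2 fold change of 0.43 was not called (95% interval -0.34 to 1.19, edgeR adjusted p = 0.601). Ifit3 had a log2 fold change of -0.62 (by edgeR, adjusted p = 0.36) and Ifit1 one of -0.04 (edgeR adjusted p = 0.953). Both windows of the latter pair held 2 ISRE cores, whereas that of Ifit2 held none.

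Oas proteins sense double-stranded RNA and make the second messenger that activates RNase L. Log2 fold changes were 0.29 for Oas1a, 0.25 for Oas2 and 0.05 for Oas3, and none of the 3 was called (edgeR adjusted p = 0.641 to 0.925). Oasl2 (chr5:114896936-114912234), a relative with ubiquitin-like domains, had the highest level per kilobase of the effectors, 27.8 CPM per kb. It had 100, 100 and 94.8 CPM in the IKO-labelled pools and 92.2, 126 and 133 in wt, where pool 1 lay below and the other pools above all of the former (log2 fold change -0.25, edgeR adjusted p = 0.469). Bst2, or tetherin, which holds budding virions at the cell surface, had a log2 fold change of 0.16, and Isg20, an exonuclease, -0.28, at the lowest level of all members (0.484 CPM per kb).

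**Figure D2:**
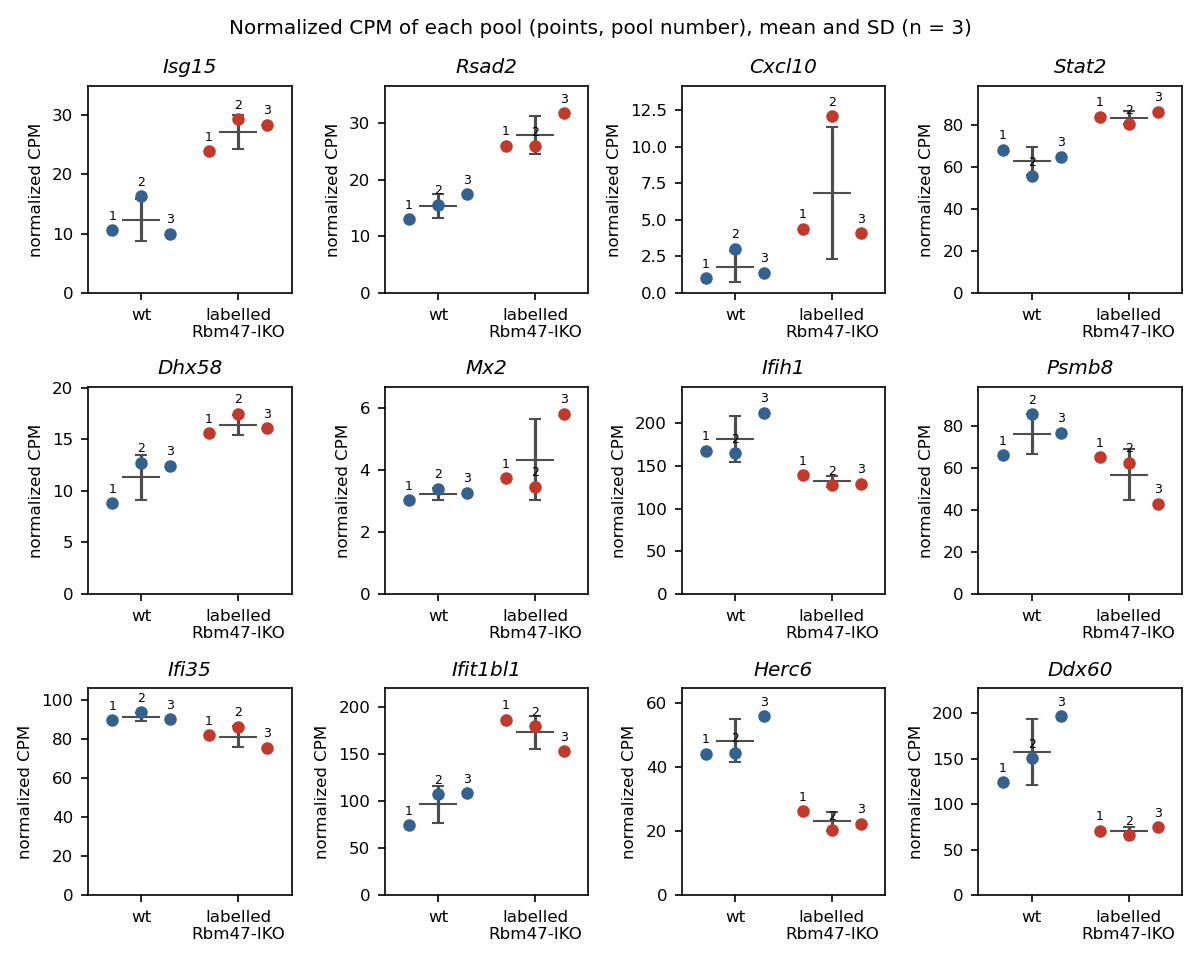
Normalized CPM (vertical axes, from 0) of each pool (points with pool numbers), with mean and SD (n = 3), for the 9 members whose groups did not overlap and for 3 called interferon-induced genes outside the panel. The gap between groups is wide for Isg15, Rsad2, Herc6 and Ddx60 and narrow for Mx2, Psmb8 and Ifi35.

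The nucleic acid sensors, which detect viral RNA or DNA in the cytoplasm, split in direction. Ifih1 (MDA5, a sensor of long double-stranded RNA, chr2:62595798-62646255) had 139, 128 and 129 CPM in the IKO-labelled pools and 168, 165 and 212 CPM in wt. Every value of the former lay below every value of the latter, and the log2 fold change was -0.46 (SE 0.13, 95% interval -0.76 to -0.16, edgeR adjusted p = 0.111). It had the highest level per kilobase of the sensors, 19.2 CPM per kb. Dhx58 (LGP2, which modulates the other sensors of its family, chr11:100694884-100704271) had 15.6, 17.5 and 16.1 CPM against 8.82, 12.7 and 12.5. It was the opposite of Ifih1, with all 3 values above those of wt, and a log2 fold change of 0.53 (SE 0.17, edgeR adjusted p = 0.16). An antisense gene, Dhx58os, shares 141 exon bases with it, but held 67 counts in all pools together against 2965 for Dhx58. Ddx58 (RIG-I, which detects 5′ triphosphate RNA) and Zbp1 (a sensor of Z-form nucleic acid that can start cell death) overlapped between groups, with log2 fold changes of 0.18 and -0.11. None of the 4 was called by edgeR, Ifih1 and Dhx58 had an unadjusted p under 0.05, and DESeq2 called Ifih1 lower.

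Of the 5 transcription factors, 4 had a log2 fold change above 0, none was called by edgeR, and 2 (Stat2 and Irf8) had an unadjusted p under 0.05. Stat2 (chr10:128270576-128292849), a subunit of the ISRE-binding complex, had 83.9, 80.4 and 86.3 CPM in the IKO-labelled pools and 68.3, 55.7 and 65.0 CPM in wt. The groups did not overlap, and the log2 fold change was 0.41 (SE 0.11, 95% interval 0.15 to 0.66, edgeR adjusted p = 0.103). DESeq2 called it higher. Irf9, the DNA-binding part of the same complex, overlapped between groups at a log2 fold change of -0.11 (by edgeR, adjusted p = 0.708), and it shares 123 exon bases on the same strand with Rnf31.

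Irf7 (chr7:141262706-141266481), which amplifies type I interferon production, had the highest level per kilobase of all members, 57.9 CPM per kb. Its values were 197, 192 and 178 CPM in the IKO-labelled pools and 116, 184 and 181 in wt. Only wt pool 1 stood apart, and the log2 fold change was 0.24 (95% interval -0.18 to 0.66, edgeR adjusted p = 0.591). Irf1, an early response factor that acts mainly downstream of interferon gamma, was next in level at 55.2 CPM per kb and had a log2 fold change of 0.17. Irf8, best known in myeloid cells, had 183, 184 and 119 CPM against 121, 114 and 110, a log2 fold change of 0.49 (by edgeR, adjusted p = 0.208). IKO-labelled pool 3 was within the wt range, and the other pools were above it. The summed CPM of 6 dendritic cell markers was 18.5 to 21.4 in the IKO-labelled pools and 20.4 to 22.5 in wt, that of 7 macrophage markers 61.9 to 78.2 and 57.1 to 108, with none of either list at 0 in any pool, and their part in the Irf8 values was not tested.

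**Figure D3:**
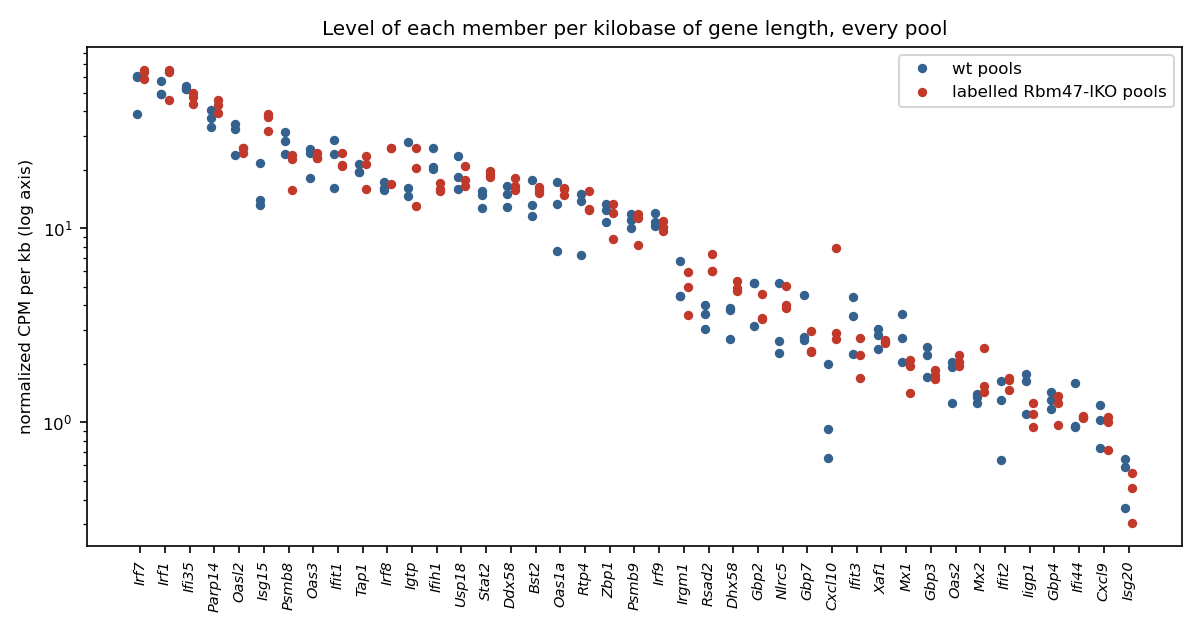
Normalized CPM per kilobase of gene length (vertical log axis) for each member, ordered by mean level, with 1 point per pool for wt and for the IKO-labelled pools. Levels run from 57.9 for Irf7 to 0.484 for Isg20, and the groups overlap for most members.

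Cxcl10, a chemokine that draws T cells bearing the receptor Cxcr3, had the largest log2 fold change and the largest spread. Cxcl10 (chr5:92346638-92348889) had 4.39, 12.1 and 4.10 CPM in the IKO-labelled pools and 1.0, 3.03 and 1.4 CPM in wt. Pool 2 was the highest in each group, about 3 times the lowest within wt (3.03-fold), yet every value of the former exceeded every value of the latter. The log2 fold change was 1.92 (SE 0.56, 95% interval 0.62 to 3.22), and edgeR did not call it (adjusted p = 0.128). It was 1.23 to 2.51 with 1 pool left out and 1.19 to 1.93 over the other alternatives. DESeq2 called Cxcl10 higher, and it was also called with pool number as a block. These were the only 2 of 10 alternatives that called it, and 0 of 6 fits with 1 pool left out did. The fit with the Y-linked covariate did not call it. In each group, pool 2 also had the most Xist (258 CPM in the IKO-labelled pools and 150 in wt). The part of sex in the Cxcl10 values was not tested beyond that covariate. Cxcl10 shares 133 exon bases on the opposite strand with Art3, whose CPM was 1.39, 2.09 and 6.16 against 1.26, 5.59 and 0.933. Pool 2 was the highest wt pool for both genes, whereas IKO-labelled pool 3 was the highest of its group for Art3 and the lowest for Cxcl10, and the part of Art3 reads in the Cxcl10 values was not tested. Cxcl9, a chemokine for the same receptor and typically induced by interferon gamma, had a log2 fold change of -0.11 (by edgeR, adjusted p = 0.917). Cxcl11, a chemokine for this receptor outside the panel, had 4.13, 4.91 and 6.34 CPM against 3.12, 2.85 and 2.96. Its groups were apart, and the log2 fold change of 0.78 was called by DESeq2 and not by edgeR (adjusted p = 0.123).

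Class I antigen processing was covered by 4 members, of which none was called by edgeR or DESeq2 and 1 (Psmb8) had an unadjusted edgeR p under 0.05. Psmb8 (chr17:34197721-34201454), a catalytic subunit of the immunoproteasome, had 64.9, 62.4 and 42.8 CPM in the IKO-labelled pools and 66.0, 85.2 and 76.7 CPM in wt. The groups did not overlap, by a margin of 66.0 over 64.9, and the log2 fold change was -0.42 (95% interval -0.83 to -0.01, edgeR adjusted p = 0.288). Psmb9, another such subunit, and Tap1, a subunit of the peptide transporter of the endoplasmic reticulum, lie head to head beside it and share 212 exon bases on opposite strands, so their reads may have been split by the counting. Their log2 fold changes were -0.08 and 0.00. Nlrc5, the transactivator of class I genes, had 38.6, 30.7 and 29.6 CPM against 39.9, 17.4 and 20.1, a log2 fold change of 0.35 (by edgeR, adjusted p = 0.646). Within wt it ranged 2.29-fold, with pool 1 at the top, above all pools of the other group. Outside the panel, H2-K1, a class I heavy chain gene with close paralogs, had 1273, 1198 and 948 CPM against 1678, 1897 and 2166. It was without overlap and lower, at a log2 fold change of -0.75 (SE 0.16, edgeR adjusted p = 0.0604), and was called in 5 of 10 alternatives, DESeq2 among them, and in 0 of 6 fits with 1 pool left out. B2m, the light chain of class I molecules, was also without overlap, at -0.44 (edgeR adjusted p = 0.221). Tapbp, or tapasin, which loads peptides onto class I molecules, went the other way, with 583, 593 and 494 CPM against 346, 387 and 441 and a log2 fold change of 0.51 (by edgeR, adjusted p = 0.104), and it was called with total counts and by DESeq2. H2-D1 (-0.25), Tap2 (0.13), Psme1 (0.24), Psme2 (0.08) and Psmb10 (0.07) overlapped between groups.

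Guanylate-binding proteins (Gbp) and immunity-related GTPases (Igtp, Irgm1, Iigp1) attack the vacuoles of intracellular bacteria and parasites and respond strongly to interferon gamma. None of the 7 was called by edgeR or DESeq2 or had an unadjusted edgeR p under 0.05, 6 had a log2 fold change below 0, and the median was -0.24, with a range of -0.45 for Iigp1 to 0.02 for Igtp. Igtp (chr11:58199556-58207591), the member with the highest level per kilobase of this role at 19.6 CPM per kb, had 52.4, 41.1 and 26.4 CPM in the IKO-labelled pools and 56.0, 29.6 and 32.6 in wt. The groups overlapped widely (95% interval -0.69 to 0.74, edgeR adjusted p = 0.983), and its sign depended on the scaling. Igtp shares 162 exon bases with Irgm2, and Gbp4 shares 61 with Gbp8 and 60 with Gbp9, all on the same strand, and the Gbp, Ifit and Oas genes each have close paralogs whose reads the counting could split.

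The remaining 5 members overlapped between groups except for Ifi35. Ifi35 (chr11:101448407-101458698), a leucine zipper protein of the interferon response, had 82.0, 86.3 and 75.5 CPM in the IKO-labelled pools and 89.7, 93.8 and 90.2 CPM in wt. It was lower in all 3, by a small margin, with a log2 fold change of -0.17 (95% interval -0.39 to 0.06, edgeR adjusted p = 0.452), at 49.9 CPM per kb. Parp14, an ADP-ribosyltransferase, had a log2 fold change of 0.21, Rtp4, a receptor chaperone, 0.16, Xaf1, a proapoptotic protein, -0.07, and Ifi44 -0.13. None of the 5 was called by edgeR or DESeq2 or had an unadjusted edgeR p under 0.05.

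The spread of the pools within a group was of the size of most differences between groups. The median SD of log2 CPM between pools of 1 group, pooled over both, was 0.268 for the members and 0.244 for all genes tested. It was 0.175 for the members in the IKO-labelled pools and 0.295 in wt, against 0.189 and 0.257 for all genes. Wt pool 1 was the lowest of its group for 23 of 41 members, and IKO-labelled pool 3 was the lowest of its group for 27 of 41. Relative to the mean of the other wt pools, 63.4% of the members and 49.6% of all genes tested were lower in wt pool 1. In IKO-labelled pool 3, 78.0% of the members and 49.4% of all genes lay below the mean of the other pools of that group. That pool had the highest summed CPM of its group for smooth muscle markers (3302, against 361 and 586). The same held for fibroblast markers (324, against 136 and 220). The part of these cells in the member values was not tested.

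Which members were low differed by role. In wt pool 1, 10 of 12 antiviral effectors were the lowest of the group (Ifit1, Ifit2, Ifit3, Oas1a, Oas2, Oas3, Oasl2, Mx2, Rsad2 and Bst2), with a median of -0.47 on the log2 scale relative to the mean of the other wt pools. In the same pool, 6 of 7 GTPases (all but Gbp3) were the highest, with a median of 0.39. In IKO-labelled pool 3, 6 of 7 GTPases lay below the mean of the other pools of that group (median -0.30), as did 4 of 4 class I members (median -0.49). So did 4 of 5 transcription factors, 4 of 4 nucleic acid sensors, 2 of 2 chemokines and 5 of 5 other interferon-stimulated genes. Of Isg15 and Usp18, 1 was above and 1 below. The antiviral effectors were evenly divided there, 6 above and 6 below.

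**Figure D4:**
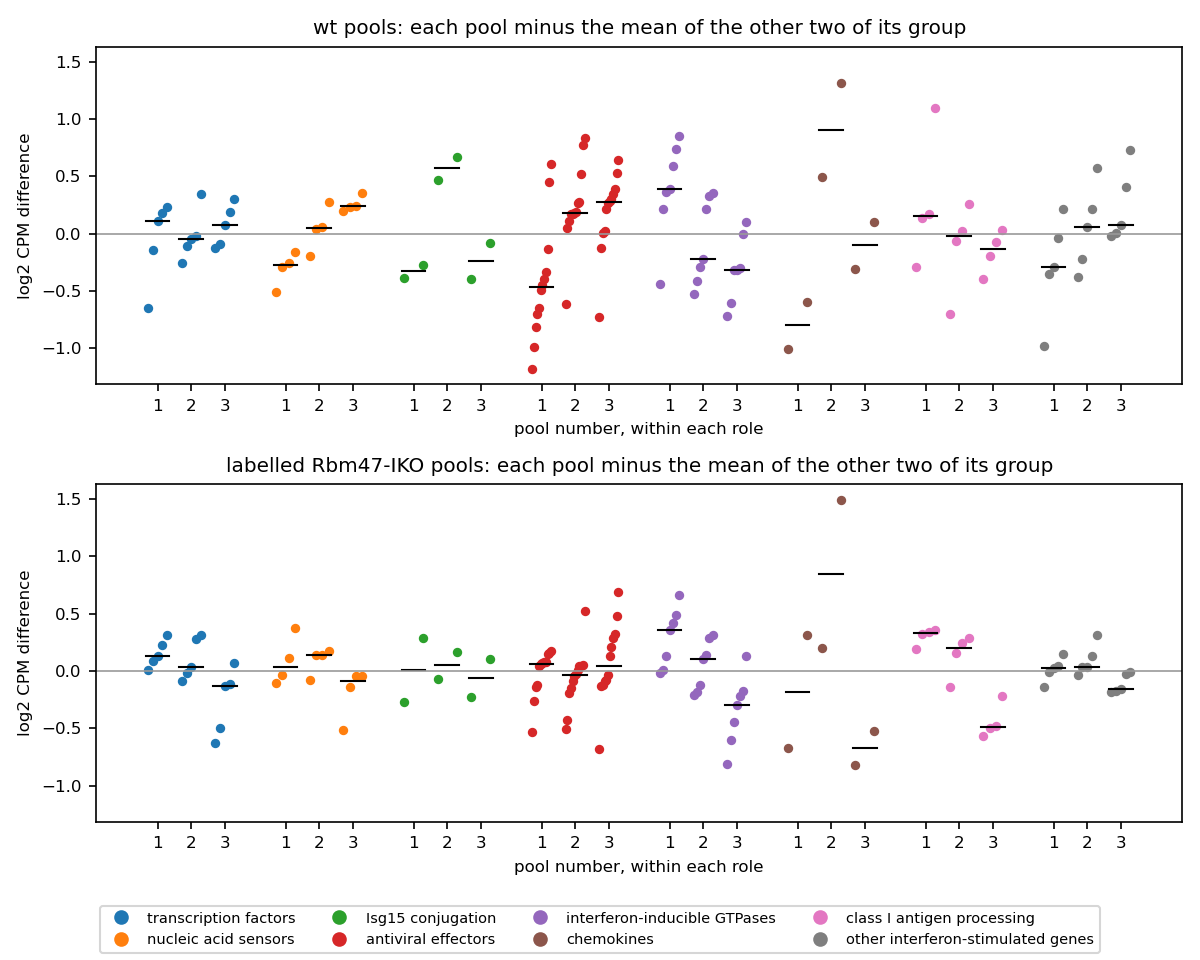
Log2 CPM of each member (points, coloured by role) in 1 pool minus the mean of the other pools of its group (vertical axis), for the wt pools and the IKO-labelled pools, with lines for medians. In wt pool 1 the antiviral effectors sit low (median -0.47) and the GTPases high (0.39).

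The summed CPM of the 7 GTPases was 130, 107 and 82.1 in the IKO-labelled pools and 151, 102 and 98.4 in wt. Markers of T cells and intraepithelial lymphocytes, the lymphocytes that lie within the gut epithelium, summed over the 9 of 10 listed genes in the tables to 257, 249 and 169 CPM and 267, 187 and 191 CPM. In both sums wt pool 1 was the highest of the 6 pools and IKO-labelled pool 3 the lowest. Most of the marker sum came from the cytotoxic granule genes Gzma and Gzmb, and without them the other 7 markers summed to 75.4, 74.9 and 64.3 CPM and 94.6, 62.0 and 70.2 CPM, with wt pool 1 still the highest but wt pool 2 the lowest. The defining T cell markers Cd3e and Cd8a were detected in every pool, at 5.86, 5.91 and 6.62 CPM and 25.8, 22.8 and 19.7 CPM in the IKO-labelled pools and 6.35, 4.77 and 5.43 CPM and 29.97, 17.5 and 20.6 CPM in wt. Gzmb had 67.8, 61.0 and 32.3 CPM against 56.0, 34.8 and 35.01. Of the 9 T cell markers summed above, all but Cd3e had their lowest value among the IKO-labelled pools in pool 3. The part of these cells in the GTPase values was not tested. The antiviral effectors summed to 383, 374 and 386 CPM against 296, 412 and 430, with wt pool 1 the lowest of all. Wt pool 1 was also the lowest of the 6 pools for the summed CPM of 5 fibroblast markers (81.2, against 132 to 386 in the others) and of 6 smooth muscle markers (90.7, against 313 to 3302). It was the highest for 2 markers of ileal enterocytes (61.6 CPM, against 7.38 and 9.60 in the other wt pools and 33.2 to 48.9 in the IKO-labelled pools). Of those 2, Slc10a2 had its highest value there (44.3 CPM), whereas Fabp6, at 17.2 CPM, lay above the other wt pools and below all IKO-labelled pools (18.6 to 39.8). The part of these cells, or of the stretch of intestine sampled, in the effector values was not tested. The labels name small intestinal mucosa, and the study gives jejunal mucosa as the source of the sequenced RNA.

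**Figure D5:**
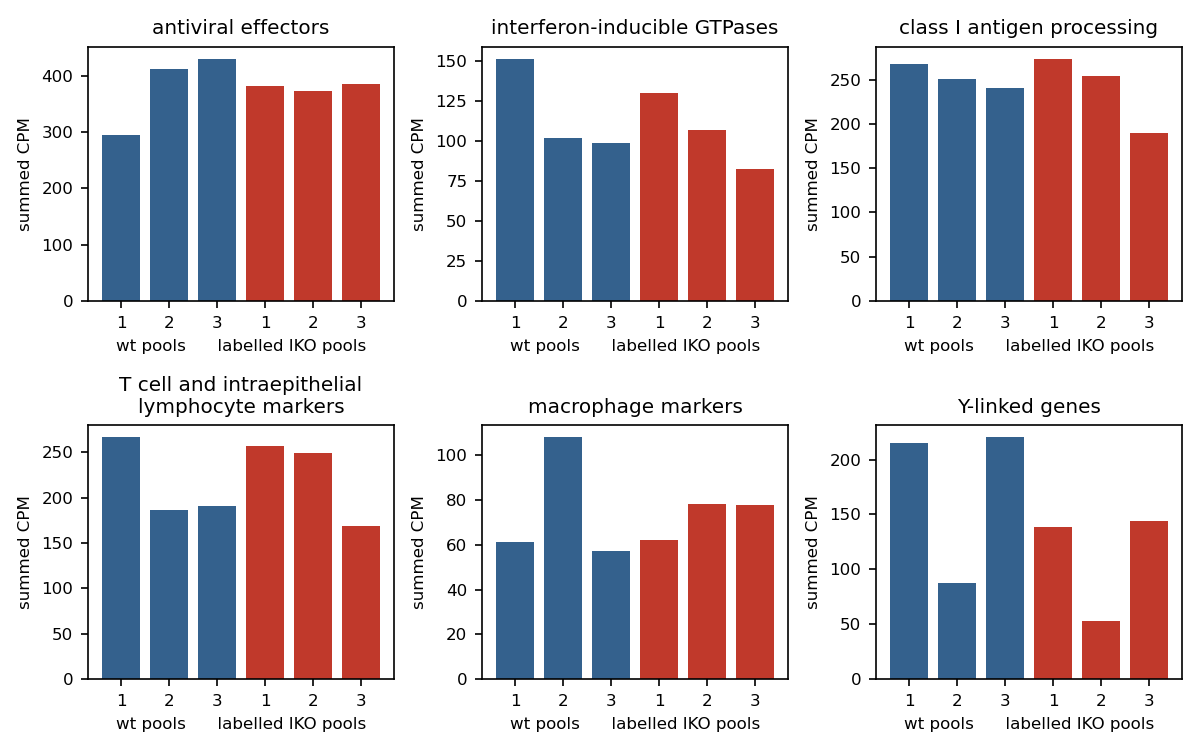
Summed normalized CPM (bars from 0) in each pool for 3 roles of members and for 3 lists of markers. The GTPase and T cell sums are highest in wt pool 1 and lowest in IKO-labelled pool 3, whereas the antiviral effector sum is lowest in wt pool 1.

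Apart from Ifnk, interferons themselves were almost undetected. Of 21 interferon genes listed, 17 were in the tables, and 12 of these, Ifnb1, 10 Ifna genes and Ifnl2, had 0 counts in every pool, which allows up to 3 counts per pool. Ifnl3, Ifne and Ifnz had 1 count over all pools. Ifng, the gene for interferon gamma, had 4, 5 and 2 counts in the IKO-labelled pools and 1, 4 and 2 in wt, too few to test. Only Ifnk passed the filter, with 48, 39 and 48 counts in the IKO-labelled pools and 63, 27 and 39 in wt. Its log2 fold change was 0.10 (by edgeR, adjusted p = 0.947).

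None of 13 genes for interferon receptors and the signalling below them was called by edgeR or DESeq2, and 2 had an unadjusted edgeR p under 0.05. Ifnlr1, the specific chain of the type III receptor, had 70.6, 65.7 and 65.2 CPM in the IKO-labelled pools and 48.7, 48.7 and 60.2 CPM in wt, without overlap (log2 fold change 0.35, edgeR adjusted p = 0.173). Ifnar1, a chain of the type I receptor, did not overlap either, at a log2 fold change of 0.20 (by edgeR, adjusted p = 0.454). Socs3, an inhibitor of cytokine receptors, had 238, 229 and 161 CPM against 89.3, 150 and 171, with IKO-labelled pool 3 inside the wt range (log2 fold change 0.61, edgeR adjusted p = 0.279). Of 14 genes that lead from sensors to interferon production, none was called by edgeR, 4 had an unadjusted p under 0.05 (16.8% of all genes), and DESeq2 called Irf2, Myd88 and Ticam1 higher, where it called 4.09% of all genes higher. Ticam1 was also called by edgeR with total counts. Without overlap, 3 lay above wt (Irf2, Myd88 and Ticam1, log2 fold changes 0.40, 0.47 and 0.39) and 4 below (Irf3, Tbk1, Ikbke and Trim25, -0.14, -0.26, -0.26 and -0.34), against 11.7% and 11.6% of all genes tested.

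Outside the panel, 59 other interferon-induced genes were listed, of which 56 were in the tables and 54 passed the filter. By edgeR 1 was called higher and 2 lower, the median log2 fold change was -0.06, and 8 lay without overlap above wt and 8 below. Over all genes tested, 2.70% were called and 23.3% lay without overlap. An unadjusted edgeR p under 0.05 was reached by 14 of the 54, against 16.8% of all genes. DESeq2 called 5 higher (Ifit1bl1, Lgals9, Slfn2, Cxcl11 and Tapbp) and 3 lower (Herc6, Ddx60 and H2-K1). The genes called by edgeR kept their direction, and the other calls were added by DESeq2. Ifit1bl1, a relative of Ifit1, had 186, 180 and 153 CPM in the IKO-labelled pools and 74.1, 107 and 108 CPM in wt, a log2 fold change of 0.84 (by edgeR, adjusted p = 0.0474). Herc6, the ligase that attaches Isg15 to proteins in mice, had 26.2, 20.3 and 22.3 CPM against 44.0, 44.4 and 55.9, a log2 fold change of -1.07 (by edgeR, adjusted p = 0.015). Ddx60, a helicase that has been linked to RIG-I signalling, had 70.7, 65.7 and 74.4 CPM against 124, 151 and 197, a log2 fold change of -1.16 (by edgeR, adjusted p = 0.0189). In all 3 the groups were apart, in opposite directions, and Isg15 and its ligase Herc6 were on opposite sides. Without 1 pool, the call of Ifit1bl1 held in 0 of 6 fits and those of Herc6 and Ddx60 in 2 of 6 each, those without wt pool 1 or wt pool 2. None of the 3 calls held with the Y-linked covariate (edgeR adjusted p = 0.167, 0.069 and 0.0945) or with pool number as a block.

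The direction of the members was set beside the presence of the ISRE core, as a description. Of the 16 members with the core, 9 had a log2 fold change above 0 and 7 below (median 0.04), and of the 14 with a window but no core, 5 and 9 (median -0.09). Without overlap between groups, 4 members with the core were higher (Stat2, Isg15, Rsad2 and Cxcl10) and 1 lower (Ifih1), against 0 higher and 2 lower (Psmb8 and Ifi35) of those with a window but no core. Of the 11 members with no window, 2 were higher without overlap (Dhx58 and Mx2) and 0 lower. Over all genes tested, 11.7% were higher and 11.6% lower without overlap. The difference between members with and without the core was not tested. Both called members, Isg15 and Rsad2, have the core, and so do Ifit3 (-0.62), Ifih1 (-0.46) and Gbp7 (-0.38). Outside the panel, Ifit1bl1, called higher, holds the core in both of its listed promoters. For Herc6, called lower, no match was found, and whether it has a window is not given here. Ddx60, also called lower, holds the core on the plus strand, beginning 53 and 19 bases before the start. The match at 53 bases is printed here for comparison with that of Isg15.
Ddx60 (chr8:61928024-61928053, plus strand): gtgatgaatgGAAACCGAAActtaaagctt
The 10 capital letters of the Ddx60 and Isg15 stretches are identical, GAAACCGAAA, while the first was lower and the second higher in the IKO-labelled pools.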

How the data were processed

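Small intestinal mucosal RNA was sequenced as 6 pools, grouped by the genotype in their labels. The authors deposited for each pool a table of 38561 genes with an unnormalized read count, the CPM computed by the authors from that count, and the authors' RPKM, which is that CPM per kilobase. Recalculation from the counts gave the same CPM and RPKM, and only counts were used further. The submitters' processing notes name STAR 2.5.1a, Subread, featureCounts 1.4.6-p5 and GRCm38. The annotation release and the use of strand and of multiply mapped reads are not given in the sources used here. Symbols were taken from GENCODE M21 (GRCm38), which matched 36639 identifiers. Counts on rows without a symbol were 0.326% to 0.403% per pool and stayed in the library sizes.

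Genes past filterByExpr of edgeR 4.0.16 (R 4.3.3, limma 3.58.1) were scaled by TMM. Testing used its quasi-likelihood test with Benjamini-Hochberg adjustment over 16425 genes, at a threshold of 0.05. CPM use TMM library sizes, and log2 CPM a prior count of 2. The test was also run on simulated data, and the outcome is not given here. Depth was 31560320 to 38951830 counts per pool, and floors of 3 counts cover counting error only, since reads are not independent molecules. Levels between genes were compared per kilobase. Pool values are given for members called, members without overlap between groups, the highest per kilobase in each role and the 3 with the largest ratio within a group. Values of Usp18, Mx1, Irf8 and the genes outside the panel are given beyond that rule, chosen after they were seen. Members and lists were chosen with earlier results of these data known. Alternatives were other normalizations, filters and a robust fit, DESeq2 1.42.0, limma-voom, a replicate block, a Y-linked covariate and leaving out each pool. Promoter motifs were searched with Python 3.11.15. Protein sequences were not used here. Not every listed gene is reported here.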

Additional observations from a re-analysis of the deposited data

How the results depend on the processing

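Of the 836 recomputed values, 727 kept their direction and their side of the threshold or their size. Most of the 836 were fold changes of genes not called in the main fit. Such a value counts as kept if its sign holds and the gene stays uncalled. The calls of Isg15 and Rsad2 each held in 8 of 10 alternatives, and in 1 and 0 of 6 fits with 1 pool left out. DESeq2 called 4 members higher and 1 lower, 1252 genes in all, 8 pathway genes higher and 3 lower, and 4 marker genes. With a Y-linked covariate, 0 members were called, 59 genes in all, and 0 pathway genes in either direction. Pathway genes called higher were 0 with RLE normalization and 4 with total counts. Rbm47, higher in the IKO-labelled pools, passed the threshold with total counts (0.41, adjusted p = 0.0473) and DESeq2 (0.41, adjusted p = 0.000983). The cause of these changes was not tested. Igtp was -0.024 with upper quartile scaling and -0.00065 with total counts. Tap1 was -0.033 and -0.011 there, -0.014 with limma-voom, -0.0019 with a filter of 1 CPM in 3 pools and -0.018 with the Y-linked covariate, under which Rtp4 was -0.019.

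With 1 pool left out, members called higher were 0 to 1 and lower 0 to 0, all genes called 0 to 431, pathway genes called higher 0 to 0 and lower 0 to 2, marker genes called 0 to 2, the median log2 fold change of the members -0.11 to 0.060, and Rbm47 0.40 to 0.44. Without IKO-labelled pool 2, 0 genes were called by edgeR, and 1729 had an unadjusted p under 0.05. The lowest and highest log2 fold changes then were -0.24 and 0.050 for Zbp1, -0.19 and 0.10 for Usp18, -0.24 and 0.15 for Ifit1, -0.089 and 0.14 for Oas3, -0.23 and 0.017 for Gbp4, -0.22 and 0.36 for Igtp, -0.30 and 0.10 for Irgm1, -0.28 and 0.074 for Cxcl9, -0.17 and 0.068 for Psmb9, -0.11 and 0.16 for Tap1, -0.26 and 0.16 for Ifi44, -0.096 and 0.35 for Rtp4, and -0.16 and 0.0069 for Xaf1.

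Whether pool numbers in the labels pair the pools was not settled. The correlation of deviations across genes was 0.408, -0.00258 and -0.277 for same-numbered pools and -0.536 to 0.479 for the others. The deviations of the 3 pools of a group sum to 0, so these values depend on each other. With the replicate block, 1 member was called higher (Cxcl10), 100 genes in all, 0 pathway genes in either direction and 1 marker gene, and Tap1 was -0.013. Isg20 was not tested under the filter of 1 CPM. Depth limits the interferon genes, most of which had no counts.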
